A study of Homo sapiens with 9 samples.

Results

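Gene expression was compared between 2 sets of 3 RNA-seq libraries that the deposited count table holds for spheroids of MDA-MB-231, an established human line from a triple-negative breast cancer. The 6 count columns whose names lack the mark of the capsule cultures were taken, out of 9 in all. They were split by the text before the replicate number: "MDA.L.O." for set A and "Sph.WT." for set B. The labels describe 3 small and 3 large spheroid samples, but neither text gives a size, so the sets keep the names A and B. Replicate numbers within a set are those of the column names.

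Both spheroid groups carry the same labels apart from size. The cells are marked WT, grew in RPMI with serum at 10%, and formed spheroids by liquid overlay, in which cells that cannot attach to the dish gather into balls. All groups, the capsules too, share a treatment of 5% Matrigel, a basement membrane extract, after trastuzumab, an antibody against the receptor ERBB2, with RNA taken after 96 h. No label describes spheroids without trastuzumab, and none says whether replicates were separate cultures. The p-values therefore measure only the spread between these libraries, which may be technical.

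The sets differ in more than their name. Columns of set A end in the same file suffix as the capsule columns, and columns of set B in another, so spheroid size, the cells used and the handling of the reads cannot be told apart here. The levels of marker genes in set A, from lists written after an earlier look at these data, also went against its label, as described below. Library totals were 15525725 to 15988167 counts in set A and 16605098 to 33263076 in set B. The 10 most abundant genes of a library took 4.15% to 4.40% of the counts in set A and 7.44% to 7.62% in set B. In set A 17644 to 17664 genes had a count, and in set B 16892 to 17145. Values are CPM (counts per 1e6 counts of the library, after TMM scaling), with the SD over n = 3 libraries, and log2 differences are set B minus set A with their standard error.

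Spheroids are a common model of solid tumours, because oxygen, nutrients and cell contacts change with depth in the ball. Genes that respond to low oxygen, nutrient supply and proliferation are therefore the usual readouts of spheroid size. MDA-MB-231 cells are known as mesenchymal-like, with high levels of the hyaluronan receptor CD44, the receptor kinase AXL, annexins and caveolins, and with a deletion that removes the cell cycle inhibitor CDKN2A.

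The sets differed in most genes. Of 16727 genes tested, 14259 (85.2%) passed an adjusted p of 0.05 by edgeR's quasi-likelihood test with Benjamini-Hochberg adjustment. Of these, 7051 (42.2% of those tested) were higher in set B and 7208 (43.1%) higher in set A. With scaling by library totals alone the split was 5246 higher in set B against 9116 higher in set A. The median log2 difference of all genes was then -0.43, against -0.01 with TMM scaling. The libraries of the sets did not overlap for 14429 genes (86.3%), and 10287 (61.5%) passed a test for more than a 1.5-fold difference. At least a 16-fold difference was seen in 828 called genes higher in set B and in 1539 higher in set A. No count at all was found in set A for 31 genes with a mean of 5 CPM or more in set B, and 93 genes showed the reverse.

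Set A resembled the capsule libraries, and set B did not. Pairs of libraries were compared by Pearson's r over all genes, on log2(CPM + 0.5); genes are no independent replicates. It was 0.993 to 0.996 within set A and 0.995 to 0.996 within set B. Between the sets it was 0.708 to 0.729. Between set A and the capsules it was 0.977 to 0.986, and between set B and the capsules 0.724 to 0.735. In a fit over all 9 columns, 7732 of 16985 genes (45.5%) were called between set A and the capsules, 1126 of them by 2-fold or more. Between set B and the capsules 14442 genes (85.0%) were called, 8918 of them by 2-fold or more. These contrasts share the capsule libraries.

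**Figure D1:**
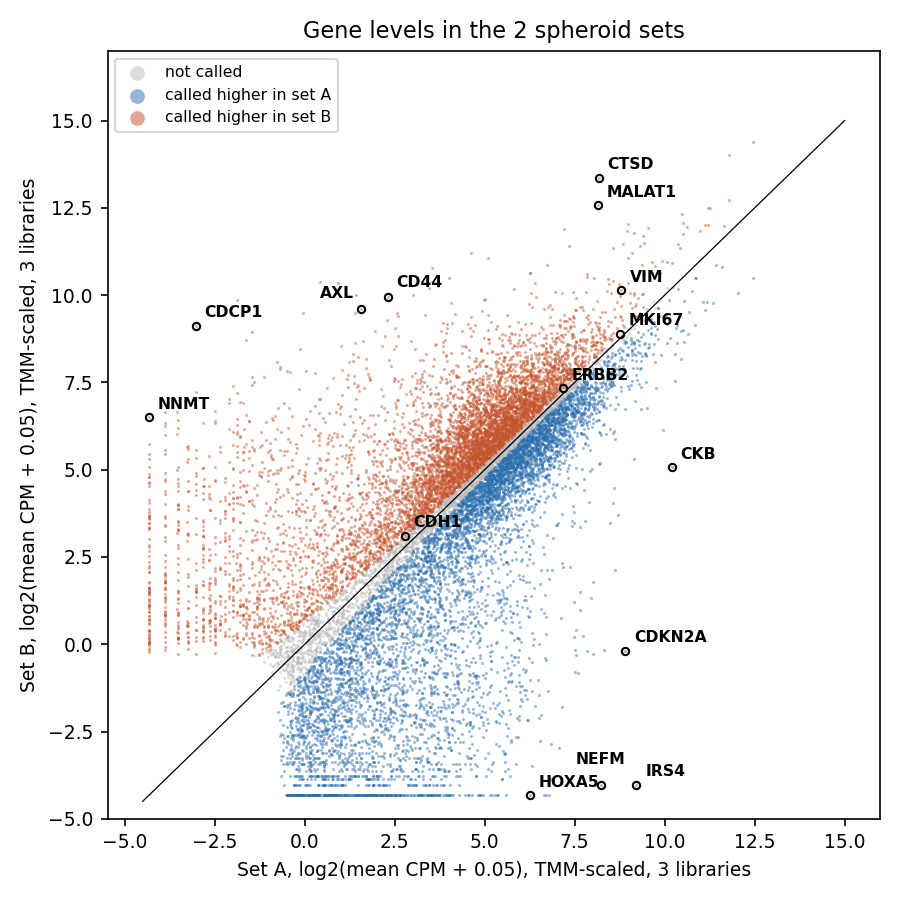
Mean level of the tested genes in set A (x axis) and set B (y axis), each as log2(mean CPM + 0.05) over 3 libraries, with called genes in colour, equal levels on the line and 15 genes circled. MKI67 and ERBB2 lie close to the line, CDCP1 and NNMT at the upper left, and IRS4 and NEFM at the lower right.

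Genes that mark MDA-MB-231 separated the sets almost completely. The list of genes linked to high levels in the line was written after an earlier look at these data. It is therefore a description and no independent check. Of its 25 genes 24 were higher in set B and 1 in set A, against 42.2% and 43.1% of all genes tested. Their median log2 difference was 5.10, against -0.01 over all genes. Their summed level was 1389.9 to 1459 CPM per library in set A and 10987 to 12337 CPM in set B. CD44, which binds hyaluronan, was at 4.93, 5.27 and 4.68 CPM in set A and 931, 1023 and 991 CPM in set B. AXL, a receptor tyrosine kinase linked to invasion, was at 2.93, 2.99 and 2.84 CPM in set A and 794, 765 and 784 CPM in set B. The libraries of both genes lay far apart, and set B was 198-fold higher for CD44 and 268-fold higher for AXL. S100A6, a calcium-binding protein, was at 2.66 CPM in set A and 1031 CPM in set B, CAV1, the caveolar coat protein, at 18 CPM in set A and 697 CPM in set B, and the annexin ANXA1, which binds phospholipids, at 14.3 CPM in set A and 586 CPM in set B. The exception was GSTP1, a glutathione transferase, at 293 CPM in set A and 231 CPM in set B.

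The opposite pattern was seen for genes typical of HEK293, a human cell line of embryonic kidney origin that also expresses neuronal genes. This list too was written after an earlier look at these data. All 11 genes tested were higher in set A, against 43.1% of all genes. Their median log2 difference was -8.13, or -5.88 with genes without counts taken at their bound. Their summed level was 1984 to 2145 CPM in set A and 41.2 to 47.9 CPM in set B, where NEFL, PAX2, LHX1 and STMN2 had no count. The neurofilament gene NEFM was at 325, 319 and 253 CPM in set A and 0, 0.0348 and 0 CPM in set B. CKB, the brain creatine kinase, was at 1063, 1198 and 1260.4 CPM in set A and 35.7, 32 and 32.6 CPM in set B. LIN28B, an RNA-binding protein of embryonic cells, was at 35.9 CPM in set A and 0.662 CPM in set B, and the deubiquitinase UCHL1 at 228 CPM in set A and 0.819 CPM in set B. Every library of set A exceeded every library of set B for all of these.

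CDKN2A (chromosome 9, 21967752 to 21995324 on GRCh38.p14) was set beside the label as a description. It is among the 9 genes fixed for naming, and is no independent check, because earlier results of these data were known. It was at 411, 432 and 602 CPM in set A and 0.991, 0.732 and 0.762 CPM in set B, or 26196 counts in set A against 49 in set B. Its neighbour CDKN2B was at 28.4 CPM in set A and 0.14 CPM in set B. Set B thus had the near absence of reads known for MDA-MB-231 at this locus, and set A did not. The label of set A is therefore used only as a name below, and every difference between the sets is one between the libraries so named.

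The genes that differed most, among those called with a mean of at least 5 CPM over the 6 libraries, were taken in each direction. On the side of set A, IRS4, an insulin receptor substrate on chromosome X (108719946 to 108736563, GRCh38.p14), was at 647, 610.3 and 496 CPM in set A and 0, 0.0348 and 0 CPM in set B. Its 31845 counts in set A against 1 in set B give a ratio of 35269.8, with a 95% exact interval for counting error from 6329.8 to 1393130.0. Against the level of 3 counts per library that an absence of reads allows, NEFL, a neurofilament chain, was at least 676-fold higher in set A. DPYSL5, which acts in axon growth, was at least 638-fold higher, and the cartilage collagen COL2A1 at least 622-fold. The transcription factors of body axis development HOXA5, HOXD10 and CDX2 had no count in set B. They were at 77, 40.4 and 35.5 CPM in set A. The desmosomal cadherin DSC3, BEND4 and the orphan receptor GPR50 were also without counts in set B. NEFM, with 1 count in set B, was in this group too.

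The 12 genes taken as highest in set B against set A include 3 long noncoding RNAs. NNMT, which methylates nicotinamide, had no count in set A and was at 92.8, 90.9 and 87.4 CPM in set B, at least 546-fold higher. CDCP1, a transmembrane substrate of SRC kinases (chromosome 3, 45082277 to 45146482, GRCh38.p14), was at 0, 0.217 and 0 CPM in set A and 518, 623 and 533 CPM in set B. ABCC3, an exporter of organic anions (chromosome 17, 50634881 to 50692253), was at 0.277, 0.271 and 0.111 CPM in set A and 978, 929 and 873 CPM in set B. No library of set A came near the lowest of set B for either. CAVIN3, a caveolar coat protein, had 1 count in set A and 117, 76.4 and 109 CPM in set B. No count in set A was found for the long noncoding RNAs UCA1, MIR100HG and LINC01085, at 53.3, 43.3 and 33.7 CPM in set B. The same held for TSPYL5, B3GALNT1 (a glycosyltransferase), C4BPB (a regulator of complement), ZNF347 and MT1E, at 24.9 to 39.2 CPM in set B. MT1E has near-identical relatives, so its counts are uncertain.

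Some of the genes usually read in spheroids differed little between the sets. ERBB2, the target of trastuzumab, was at 137, 162 and 135 CPM in set A and 179, 150.4 and 154 CPM in set B. The sets overlapped, and the log2 difference of 0.16 ± 0.09 missed the threshold (adjusted p = 0.11 by edgeR's quasi-likelihood test). With library totals it turned to -0.26 and passed as higher in set A (adjusted p = 0.0123 by edgeR). MKI67, a marker of cycling cells, was at 458, 441 and 399 CPM in set A and 459, 484 and 485 CPM in set B. The lowest library of set B was level with the highest of set A. The log2 difference was 0.14 ± 0.08 (adjusted p = 0.104 by edgeR), and it turned to -0.02 with offsets for GC content and length. With library totals it turned to -0.28 and passed as higher in set A (adjusted p = 0.00259 by edgeR). CDH1, the epithelial cadherin, was at 6.87, 8.14 and 5.68 CPM in set A and 10.6, 8.19 and 6.995 CPM in set B, with a log2 difference of 0.32 ± 0.17 (adjusted p = 0.0955 by edgeR) that turned to -0.10 with library totals (adjusted p = 0.584 by edgeR). These misses do not show that the levels were alike. Library totals called ERBB2 and MKI67 higher in set A, while other settings called genes of this group higher in set B: ERBB2 without replicate 2 of set A (0.24) and with the offsets (0.41), CDH1 without replicate 2 of set A (0.45) or replicate 3 of set B (0.42). In the fit over all 9 columns ERBB2 (0.20), MKI67 (0.18) and CDH1 (0.36) all passed.

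Other genes of that group were clearly higher in set B. EGFR, the epidermal growth factor receptor, was at 16.2, 17.5 and 11.6 CPM in set A and 152, 201 and 185 CPM in set B, an 11.9-fold difference (adjusted p = 3.14e-14 by edgeR). VEGFA, the main angiogenic factor, was at 59.5, 69.1 and 73 CPM in set A and 260.2, 276 and 258 CPM in set B, and the intermediate filament gene VIM at 458, 462 and 409 CPM in set A and 1188, 1059 and 1162 CPM in set B. The libraries of the sets were apart for all 3 genes. CA9, a carbonic anhydrase induced by low oxygen, was low throughout, at 0.941, 0.977 and 1.95 CPM in set A and 2.33, 1.78 and 4.71 CPM in set B, and its libraries overlapped. Its log2 difference of 1.12 ± 0.36 (adjusted p = 0.00855 by edgeR) no longer passed without replicate 3 of set B (0.64), without replicate 2 of set A (0.96) or with library totals (0.70).

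**Figure D2:**
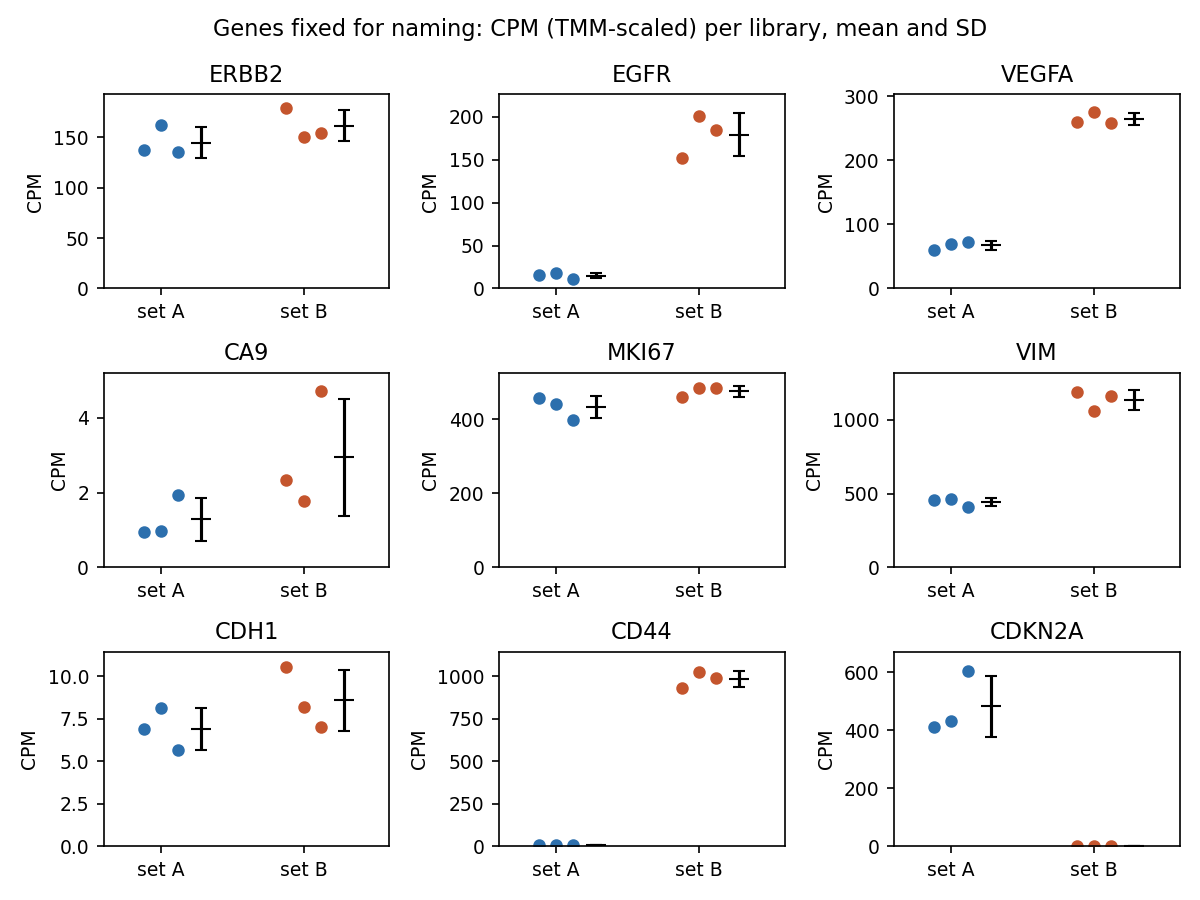
CPM per library (points) with mean and SD (bars, n = 3) in sets A and B for the 9 genes fixed for naming, each on its own linear axis from 0. ERBB2, CA9 and CDH1 overlap between the sets, CD44 and EGFR have every set B library above every set A library, and CDKN2A the reverse.

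Adhesion genes were mostly higher in set B. Integrins link the cytoskeleton to the matrix, and of 22 genes of integrins and focal adhesions 20 were higher in set B and 2 in set A, against 42.2% and 43.1% of all genes. The list's median log2 difference was 2.87. ITGA3, a laminin receptor chain, was at 24.4, 22.5 and 26.9 CPM in set A and 2462, 2424 and 2270.2 CPM in set B. Set B was 97-fold higher, with no overlap. Its partner chain ITGB1 rose from 76.6 to 1575 CPM, ITGA6 from 25.6 to 501 CPM and ITGB4, which pairs with ITGA6, from 12.6 to 386 CPM. The exceptions were the adaptor TNS1, which fell from 9.57 to 1.37 CPM, and ZYX, a focal adhesion protein, from 173 to 139 CPM.

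Matrix genes followed with more exceptions. Of 25 matrix genes 18 were higher in set B and 6 in set A, with a median of 1.5. Among all genes tested these shares were 42.2% and 43.1%. COL1A2, a fibrillar collagen chain, was at 0.221, 0.434 and 0.278 CPM in set A and 179, 182 and 153 CPM in set B. COL12A1, a collagen that associates with fibrils, was at 11.5 CPM in set A and 1332 CPM in set B, the laminin chain LAMB3 at 7.73 CPM in set A and 408 CPM in set B, and fibronectin, FN1, at 163 CPM in set A and 2712 CPM in set B. NID1, which links laminin to collagen in basement membranes, went the other way, at 189, 193 and 168 CPM in set A and 0.700, 0.523 and 0.346 CPM in set B. The libraries of the sets were apart for both COL1A2 and NID1, in opposite directions. LAMA1, LAMA4, NID2, COL1A1 and SPARC were also higher in set A. For matrix remodelling 15 of 19 genes were higher in set B and 3 in set A (median 3.11, or 2.50 with MMP7, absent from set A, at its bound). The plasminogen activator PLAU was at 3.34 CPM in set A and 215 CPM in set B, the membrane protease MMP14 at 5.61 CPM in set A and 533 CPM in set B and the inhibitor TIMP2 at 55.9 CPM in set A and 1154 CPM in set B. ADAMTS1 and MMP2, a secreted gelatinase, were higher in set A, at 256 CPM in set A and 3.36 CPM in set B and at 46.8 CPM in set A and 2.17 CPM in set B.

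YAP and TAZ are co-activators that respond to cell density and tension. Their targets were higher in set B for 19 of 21 genes and higher in set A for 2 (median 3.19). For comparison, 42.2% of all genes tested were higher in set B and 43.1% in set A. NT5E, an ectonucleotidase, was at 0.609, 0.652 and 0.445 CPM in set A and 229, 242 and 261 CPM in set B. CCN1, a matricellular protein, was at 17.2 CPM in set A and 589 CPM in set B, MYOF, a membrane repair protein, at 10.9 CPM in set A and 1176 CPM in set B, and the tissue factor gene F3 at 1.97 CPM in set A and 371 CPM in set B. GADD45A and FOXF2 were higher in set A. Genes of the TGF-beta list were higher in set B for 14 of 19 and in set A for 4 (median 1.45). The list mixes targets with components of the pathway, among them TGFB1, TGFB2, TGFBR1, TGFBR2 and SMAD3, all higher in set B. The ligand TGFB2 was at 1.77, 2.77 and 2.23 CPM in set A and 194, 213 and 226 CPM in set B. It rose 93.5-fold and the receptor TGFBR2 23.9-fold, whereas CDKN2B, a member of this list that lies beside CDKN2A, fell. Of 18 actin and SRF targets 16 were higher in set B and 1 in set A (median 1.16), among them the filamin FLNA at 749 CPM in set A and 3909 CPM in set B and the myosin light chain MYL9 at 0.312 CPM in set A and 202 CPM in set B. CNN1, a calponin, was the one higher in set A.

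Mesenchymal and epithelial genes did not separate the sets in opposite directions. Of 20 mesenchymal genes 12 were higher in set B and 8 in set A (median 0.89). Of 24 epithelial and luminal genes these counts were 14 and 8 (median 0.87, or 1.79 with offsets for GC content and length). The shares of all genes tested were 42.2% in set B and 43.1% in set A. Within the mesenchymal list S100A4, a calcium-binding protein, was at 2.77, 2.12 and 2.9 CPM in set A and 674, 729 and 746 CPM in set B. ZEB1, a repressor of CDH1, was at 27.2 CPM in set A and 95.7 CPM in set B, whereas the repressor TWIST1 was at 23.6 CPM in set A and 0.128 CPM in set B. CDH2, the neural cadherin, was at 57, 54.9 and 51.4 CPM in set A and 1.28, 1.46 and 1.8 CPM in set B, so all libraries of set A exceeded those of set B. Among epithelial genes KRT7, a simple keratin, was at 14.3, 18.4 and 13.1 CPM in set A and 508, 483 and 466 CPM in set B. The tight junction gene CLDN4 was 29.9-fold higher. ESRP2, an epithelial splicing factor, was higher in set A, at 65.7 CPM in set A and 8.31 CPM in set B, and the progesterone receptor PGR had no count in set B.

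Innate immune genes were among the lists with the largest medians. Interferons are cytokines that induce antiviral genes. Of 28 such genes 25 were higher in set B and 3 in set A (median 3.03), against 42.2% and 43.1% of all genes. The antiviral GTPase MX1 was at 0.498, 0.109 and 0.501 CPM in set A and 51.5, 50.1 and 48.6 CPM in set B. OAS2, which makes the activator of RNase L, was at 0.166, 0.109 and 0.278 CPM in set A and 34.7, 39.1 and 37.7 CPM in set B. IFI27 was 66.2-fold higher in set B. No library overlapped for these genes. The exceptions were USP18, which removes the ubiquitin-like ISG15, at 22.9 CPM in set A and 2.71 CPM in set B, IFI6 and ISG20.

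Of 13 genes of MHC class I and antigen processing, 12 were higher in set B and 1 in set A (median 3.06). Among all genes tested, 42.2% were higher in set B and 43.1% in set A. B2M, the invariant light chain, was at 82.5, 77.2 and 94.4 CPM in set A and 1318, 1200.0 and 1361 CPM in set B. TAPBP, which loads peptide, and the transactivator NLRC5 rose 20.1-fold and 16.7-fold. HLA-C was the exception, at 212 CPM in set A and 64.8 CPM in set B, and HLA counts are uncertain because alleles differ from the reference. NF-kB drives cytokines and survival genes in response to inflammation. Of 22 of its targets 20 were higher in set B and 1 in set A (median 3.32). The inhibitor of apoptosis BIRC3 was at 1.11, 1.03 and 0.779 CPM in set A and 219, 222 and 246 CPM in set B. ICAM1, a leukocyte adhesion molecule, was at 2.21, 2.44 and 2.78 CPM in set A and 307, 357 and 291 CPM in set B, and TNFAIP2 rose 97.5-fold. The cytokine IL6 was at 0.202 CPM in set A and 16.6 CPM in set B, and CSF2 had no count in set A. PTGS2, the inducible cyclooxygenase, was higher in set A at 3.43 CPM in set A and 0.0659 CPM in set B.

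AP-1 genes split within the family. AP-1 is a dimer of FOS and JUN proteins that binds TGANTCA, and of 22 AP-1 and immediate early genes 8 were higher in set B and 12 in set A. The shares of all genes tested were 42.2% in set B and 43.1% in set A. The list's median log2 difference was -0.40, which turned to 0.10 with offsets for GC content and length. The members FOSL1 and FOSL2 were higher in set B. FOSL1 was at 12.8, 10.6 and 11.1 CPM in set A and 212, 209 and 199 CPM in set B and FOSL2 at 33.7 CPM in set A and 250.1 CPM in set B. DUSP6, a phosphatase that limits ERK, was at 1.72, 1.79 and 1.11 CPM in set A and 94, 90.3 and 110.1 CPM in set B. By contrast JUN was at 869 CPM in set A and 161 CPM in set B, ATF3, a stress-induced partner of JUN, at 117 CPM in set A and 4.28 CPM in set B, and the immediate early gene NR4A1 at 48.9 CPM in set A and 2.42 CPM in set B. FOS, FOSB, JUNB, EGR1, EGR2 and EGR3 were also higher in set A.

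The AP-1 motif was searched in RefSeq promoters (250 bases before to 50 after the start that the table gives the gene, GRCh38.p14) of genes at least 16-fold apart. TGANTCA, which reads the same on both strands, was held by 12.2% of 589 promoters of genes higher in set B and by 4.46% of 1076 of genes higher in set A. It was held by 4.83% of 12849 promoters of all genes tested and 7.76% of all 27305 in the table. The promoters also differed in base composition, with a median of 13 CpG in genes higher in set B, 23 in those higher in set A and 25 in all tested. Of the genes that the naming rule takes up and that were at least 16-fold higher in set B, 35 had a promoter in the table and 3 of these held the motif. They are the chemokine CXCL8 (126-fold higher in set B), the lipopolysaccharide co-receptor CD14 (66.8-fold) and the claudin CLDN4 (29.9-fold). The window of CD14 lies inside the gene's RefSeq record, so it is not shown. The promoters of CXCL8 and CLDN4 are shown 5′ to 3′ on the gene's strand, with the matches in capitals, from chr4:73740319-73740618 (+) and chr7:73830746-73831045 (+).
CXCL8: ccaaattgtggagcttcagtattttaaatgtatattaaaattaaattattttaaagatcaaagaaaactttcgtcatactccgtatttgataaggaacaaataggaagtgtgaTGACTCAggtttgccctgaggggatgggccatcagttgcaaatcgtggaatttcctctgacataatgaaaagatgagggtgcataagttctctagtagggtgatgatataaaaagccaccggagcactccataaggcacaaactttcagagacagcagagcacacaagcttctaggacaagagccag
CLDN4: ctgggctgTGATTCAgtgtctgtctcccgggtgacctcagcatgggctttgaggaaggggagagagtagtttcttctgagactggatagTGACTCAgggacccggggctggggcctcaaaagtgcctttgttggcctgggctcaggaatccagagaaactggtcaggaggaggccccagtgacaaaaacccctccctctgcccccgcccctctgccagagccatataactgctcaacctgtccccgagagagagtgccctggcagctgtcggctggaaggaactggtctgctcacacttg
The first match starts 137 bases before the start of CXCL8 and 242 before that of CLDN4. CXCL8 was at 0.941, 0.434 and 0.835 CPM in set A and 80.2, 114 and 85.6 CPM in set B. CD14 was at 0.831, 0.652 and 0.891 CPM in set A and 52.6, 59.4 and 46.5 CPM in set B. A match is a description of these letters and not evidence of binding.

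ERBB receptors are growth factor receptors, and their list holds ligands, receptors and neighbouring genes. Of 15 genes of the ERBB list 11 were higher in set B and 3 in set A (median 2.87). EREG, an EGFR ligand, had 1 count in set A and was at 41.7, 48.3 and 51.4 CPM in set B. The EGFR ligand TGFA rose from 4.67 to 85.6 CPM, AREG from 0.954 to 25.4 CPM, and NRG1, a ligand of ERBB3 and ERBB4, from 0.461 to 47 CPM. ERBB4 was higher in set A at 6.01 CPM in set A and 0.0852 CPM in set B, and ERBB3 fell from 15.5 to 12.7 CPM. The ligand NRG2 was also higher in set A, at 9.27 CPM in set A and 2.52 CPM in set B. Angiogenic and growth factors were higher in set B for 9 of 15 and in set A for 6 (median 1.98). The shares of all genes tested were 42.2% in set B and 43.1% in set A. ANGPT1, a ligand of the endothelial receptor TEK, was at 0.221, 0.217 and 0.223 CPM in set A and 58.3, 63.1 and 72.1 CPM in set B, and VEGFC and PDGFC were also higher in set B. FGF2, PGF, CXCL12 and IGF2 were higher in set A, and IGF2 had no count in set B. Stem cell markers were even, with 5 of 10 in each direction (median 0.26, turning to -0.16 with library totals). CD44, ALDH1A3 and SOX9 were higher in set B, and SOX2, which had no count in set B, ALDH1A1 and LGR5 in set A.

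Targets of hypoxia-inducible factors were mostly higher in set B, by small amounts. Of 25 genes 21 were higher in set B and 3 in set A, against 42.2% and 43.1% of all genes. The median log2 difference was 0.84, or 0.43 with library totals. CA12, a membrane carbonic anhydrase, was at 6.09, 5.32 and 5.18 CPM in set A and 203, 146 and 248 CPM in set B. SLC2A1, the main glucose importer, was at 94.1, 96.4 and 102 CPM in set A and 399, 358 and 373 CPM in set B, with no overlap. The other rises included the mitophagy receptor BNIP3, from 80.3 to 194 CPM, and the prolyl hydroxylase P4HA1, from 61.7 to 198 CPM. Against them STC2, a secreted glycoprotein, was at 190.0, 205 and 211 CPM in set A and 1.81, 2.13 and 1.87 CPM in set B, and the lipid droplet gene HILPDA fell from 59.8 to 14.6 CPM. The list therefore held members that were 36-fold higher in set B and 104-fold higher in set A.

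Glycolytic genes were higher in set B for 11 of 20 and in set A for 7 (median 0.41, turning to -0.01 with library totals). The shares of all genes tested were 42.2% in set B and 43.1% in set A. SLC16A3, the lactate exporter, was at 6.76, 5.76 and 5.51 CPM in set A and 756, 585 and 670.2 CPM in set B. PKM, pyruvate kinase, rose 2.53-fold, and LDHA, the muscle-type lactate dehydrogenase subunit, from 848 to 1844 CPM. Its heart-type relative LDHB fell from 908 to 432 CPM, hexokinase HK2 from 180.1 to 53.3 CPM and GAPDH from 2773 to 1848 CPM. Of 13 mitochondrially encoded mRNAs 11 were higher in set B and 0 in set A (median 1.18), but 2 were higher in set A with library totals and 1 with offsets for GC content and length. The cytochrome oxidase subunit COX1 was at 6251, 5557 and 5099 CPM in set A and 21755, 21576 and 21391 CPM in set B. Of 26 nuclear genes 6 were higher in set B and 15 in set A (median -0.38), with the complex I subunit NDUFB8 falling from 310.3 to 77.2 CPM and COX7C from 264 to 128 CPM.

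Genes of lipid supply were mostly higher in set B. Of 23 genes of cholesterol synthesis and uptake 18 were higher in set B and 3 in set A (median 0.85). Among all genes tested these shares were 42.2% and 43.1%. The sterol oxidase MSMO1 was at 26, 28.3 and 24.1 CPM in set A and 245, 304 and 289.7 CPM in set B. It rose 10.7-fold with no overlap, whereas SQLE, squalene epoxidase, fell from 99.1 to 60.9 CPM. Fatty acid synthesis genes were higher in set B for 10 of 14 and in set A for 4 (median 1.70). The desaturase SCD rose from 635 to 2719.9 CPM, FADS2 3.71-fold and ACSS2, which activates acetate, 5.61-fold, and the synthase FASN fell from 1123 to 935 CPM.

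NRF2, a transcription factor active under oxidative stress, drives antioxidant enzymes. Of 22 genes in its list 19 were higher in set B and 1 in set A (median 2.43). The list also holds NFE2L2, the gene of NRF2 itself, which was higher in set B, and KEAP1, which did not pass. The quinone reductase NQO1 was at 8.53, 7.6 and 8.85 CPM in set A and 338, 358 and 357 CPM in set B. TXNRD1, thioredoxin reductase, was at 115, 106 and 98.7 CPM in set A and 1743, 1899 and 1909.7 CPM in set B, and the ferritin light chain FTL rose 7.33-fold. HMOX1, heme oxygenase, was the exception at 64.4 CPM in set A and 26.7 CPM in set B. AKR1C1 and AKR1C2 rose too, but share near-identical sequence. Of 23 autophagy and lysosome genes 20 were higher in set B and 3 in set A (median 1.62). CTSD, a lysosomal protease, was at 265, 294 and 302 CPM in set A and 11525, 9833 and 10238 CPM in set B. It was one of the genes with most counts in set B, and the proteases CTSB and CTSA rose 11.4-fold and 11.6-fold. ULK1, which starts autophagy, GLA and ATP6V0D1 were higher in set A. Metallothionein and zinc genes were higher in set B for 4 of 7 and in set A for 2 (median 0.46). The shares of all genes tested were 42.2% in set B and 43.1% in set A. This list was led after MT1E by MT2A, at 11 CPM in set A and 76.1 CPM in set B. Of 11 drug efflux transporters 7 were higher in set B and 2 in set A (median 0.42). Besides ABCC3, ABCG2 rose from 2.99 to 20.4 CPM, whereas ABCB1, the P-glycoprotein gene, was at 23.4, 21.9 and 18.3 CPM in set A and 0.525, 0.836 and 1.11 CPM in set B.

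Genes of translation and DNA replication were higher in set A. Of 30 cytosolic ribosomal protein genes 0 were higher in set B and 29 in set A (median -1.37). The corresponding shares of all genes tested were 42.2% and 43.1%. RPS2 was at 1324, 1497 and 1417 CPM in set A and 306, 266 and 289.6 CPM in set B. RPL8 was at 4239, 4312 and 4097 CPM in set A and 1169, 961 and 1078 CPM in set B, and RPL7 was 7.29-fold higher in set A. RPL15 was at 540.2 CPM in set A and 527 CPM in set B and did not pass. Reads of these genes can be shared with their pseudogenes. Of 24 genes of ribosome biogenesis and MYC targets 3 were higher in set B and 20 in set A (median -0.80). ODC1, the first enzyme of polyamine synthesis, was at 192, 179 and 158 CPM in set A and 53.9, 49.2 and 49 CPM in set B. The nucleolar factor PES1 and CAD, of pyrimidine synthesis, were 2.58-fold and 2.32-fold higher in set A, whereas MYC itself was higher in set B, at 83.5 CPM in set A and 120.0 CPM in set B.

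For S phase 19 of 28 genes were higher in set A and 5 in set B (median -0.96). The shares of all genes tested were 43.1% in set A and 42.2% in set B. CDT1, which licenses replication origins, was at 206, 224 and 225 CPM in set A and 24.7, 19.6 and 19.7 CPM in set B. The helicase subunit MCM2 and its partner CDC45 were 3.71-fold and 3.87-fold higher in set A, with no overlap, and TYMS, thymidylate synthase, was higher in set B, at 45.2 CPM in set A and 75.9 CPM in set B. Of 26 G2 and mitosis genes 12 were higher in set A and 4 in set B, while the others did not pass (median -0.16, or -0.57 with offsets for GC content and length). HMMR, a spindle protein, was at 57.2, 47.7 and 45.3 CPM in set A and 9.15, 8.92 and 11.2 CPM in set B. AURKB, a mitotic kinase, and BIRC5, its partner survivin, were 3.34-fold and 2.93-fold higher in set A. TOP2A, CDK1 and AURKA were among those that did not pass, with TOP2A at 517 CPM in set A and 473 CPM in set B.

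ATF4 induces amino acid synthesis and import when amino acids run short, and of 20 genes of this response 8 were higher in set B and 11 in set A (median -0.25, or -0.05 with offsets for GC content and length). Of all genes tested 42.2% were higher in set B and 43.1% in set A, so little set these members' counts apart from that background. PHGDH, the first enzyme of serine synthesis, was at 369, 362 and 335 CPM in set A and 13.3, 8.33 and 11.4 CPM in set B. SESN2, a leucine sensor, was at 126, 132 and 128 CPM in set A and 12.2, 10.2 and 9.7 CPM in set B. Both were higher in every library of set A, as was ATF4, at 545 CPM in set A and 186 CPM in set B. SLC7A11, the cystine importer, which is also an NRF2 target, was higher in set B, at 13.7 CPM in set A and 91 CPM in set B. Of 20 unfolded protein response genes 15 were higher in set B and 4 in set A (median 0.92). SEL1L, of the degradation complex of the endoplasmic reticulum, was at 64.1, 57.4 and 50 CPM in set A and 216, 229 and 238 CPM in set B. DNAJC3 and EDEM1 rose 3.23-fold and 2.93-fold, whereas SDF2L1, MANF and CRELD2 were higher in set A.

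Heat shock genes were even, with 7 of 16 higher in set B and 7 in set A (median 0.15, turning to -0.26 with library totals and -0.07 with offsets for GC content and length). HSPA8, the constitutive chaperone, rose from 809.8 to 1989.5 CPM. The inducible copies HSPA1A and HSPA1B, which are near-identical and therefore uncertain, were higher in set A. Targets of p53 were higher in set A for 12 of 20 and in set B for 6 (median -0.78, or -0.35 with offsets). The shares of all genes tested were 43.1% in set A and 42.2% in set B. BTG2, an antiproliferative gene, was at 44, 43.7 and 43.5 CPM in set A and 1.87, 1.18 and 2.15 CPM in set B. DDB2, a sensor of ultraviolet damage, was at 49.2, 50.1 and 53.1 CPM in set A and 8.57, 7.74 and 7.06 CPM in set B, and CDKN1A, the p21 inhibitor, fell from 134 to 82.1 CPM. Of 24 apoptosis regulators 16 were higher in set B and 7 in set A (median 0.77). The survival gene BCL2L1 was at 33.4, 34.2 and 33.9 CPM in set A and 443, 454 and 390.0 CPM in set B, and the inhibitors BIRC2 and CFLAR rose as well. Genes that promote apoptosis were split. The initiators HRK, BBC3 and PMAIP1 and the effector BAX were higher in set A. The initiators BCL2L11, BMF, BAD and BIK and the effectors BAK1 and BOK were higher in set B.

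For comparison, 42.2% of all genes tested were higher in set B and 43.1% in set A. Of 5 genes in the list of nuclear long noncoding RNAs 4 were higher in set B and 1 in set A (median 2.03). The list also holds NORAD, a mainly cytoplasmic RNA, and the median is its value. MALAT1, of nuclear speckles, was at 301, 255 and 291 CPM in set A and 6222, 6592 and 5573 CPM in set B, and NEAT1, of paraspeckles, at 473, 514 and 528 CPM in set A and 4141, 4635 and 3815 CPM in set B. Both were higher in every library of set B. Replication-dependent histone genes, whose mRNAs end without a poly(A) tail, were higher in set A for 11 of 15 and in set B for 2 (median -1.52), and close copies can share reads. All 9 genes in the list of short noncoding RNAs were higher in set A (median -1.81, or -1.06 with offsets for GC content and length). The list also holds SNHG1, which makes a long RNA and hosts small nucleolar RNAs, and the median with offsets is its value. RN7SK, a regulator of transcription elongation, was at 7.81, 4.34 and 21.7 CPM in set A and 0.700, 0.871 and 1.04 CPM in set B, and SNORD3A at 8.86, 3.37 and 21.1 CPM in set A and 0.291, 0.0697 and 0.346 CPM in set B. In both, replicate 3 of set A was the highest. Such RNAs depend on how RNA was selected and sized, and with the sets these steps cannot be told apart from the cells.

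Gene length and GC content moved with the difference as well. The median log2 difference was -0.42, -0.08, 0.15 and 0.30 from the shortest to the longest of 4 equal groups of genes, and 0.53, 0.17, -0.22 and -0.68 from the lowest to the highest of 4 groups by GC content. Of the group with the lowest GC content 59.6% were called higher in set B, and of the highest 27.3%. Their part in the lists was not tested beyond the offsets, under which 13906 genes were called.

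Markers of other cell types showed no common direction. The shares of all genes tested were 42.2% in set B and 43.1% in set A. Fibroblast markers summed to 214 to 239.8 CPM in set A and 239 to 264 CPM in set B, with 4 of 9 higher in set B and 3 in set A. FBLN1 was 11.8-fold higher in set A. POSTN was higher in set B, at 0.165 CPM in set A and 17.4 CPM in set B. Endothelial markers summed to 7.92 to 10 and 15.3 to 22.1 CPM, and 3 of 4 were higher in set B and 1 in set A. Immune markers summed to 41 to 44 and 162 to 184 CPM, mostly from CD68 and, in set B, CD14, with 3 of 7 higher in set B and 3 in set A. CD4 was higher in set A, at 3.59 CPM in set A and 0.031 CPM in set B. Markers of HER2-positive luminal breast cells summed to 356 to 403 and 634 to 768 CPM, with 5 of 12 higher in set B, 3 in set A and the keratin KRT19 at 20.7 CPM in set A and 325 CPM in set B. The medians of the fibroblast, immune and HER2 lists turned sign with library totals. In bulk RNA, fewer cells of a type and less RNA per cell cannot be told apart.

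Across all 43 lists, 29 had more members higher in set B, 11 more higher in set A and 3 were even.

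**Figure D3:**
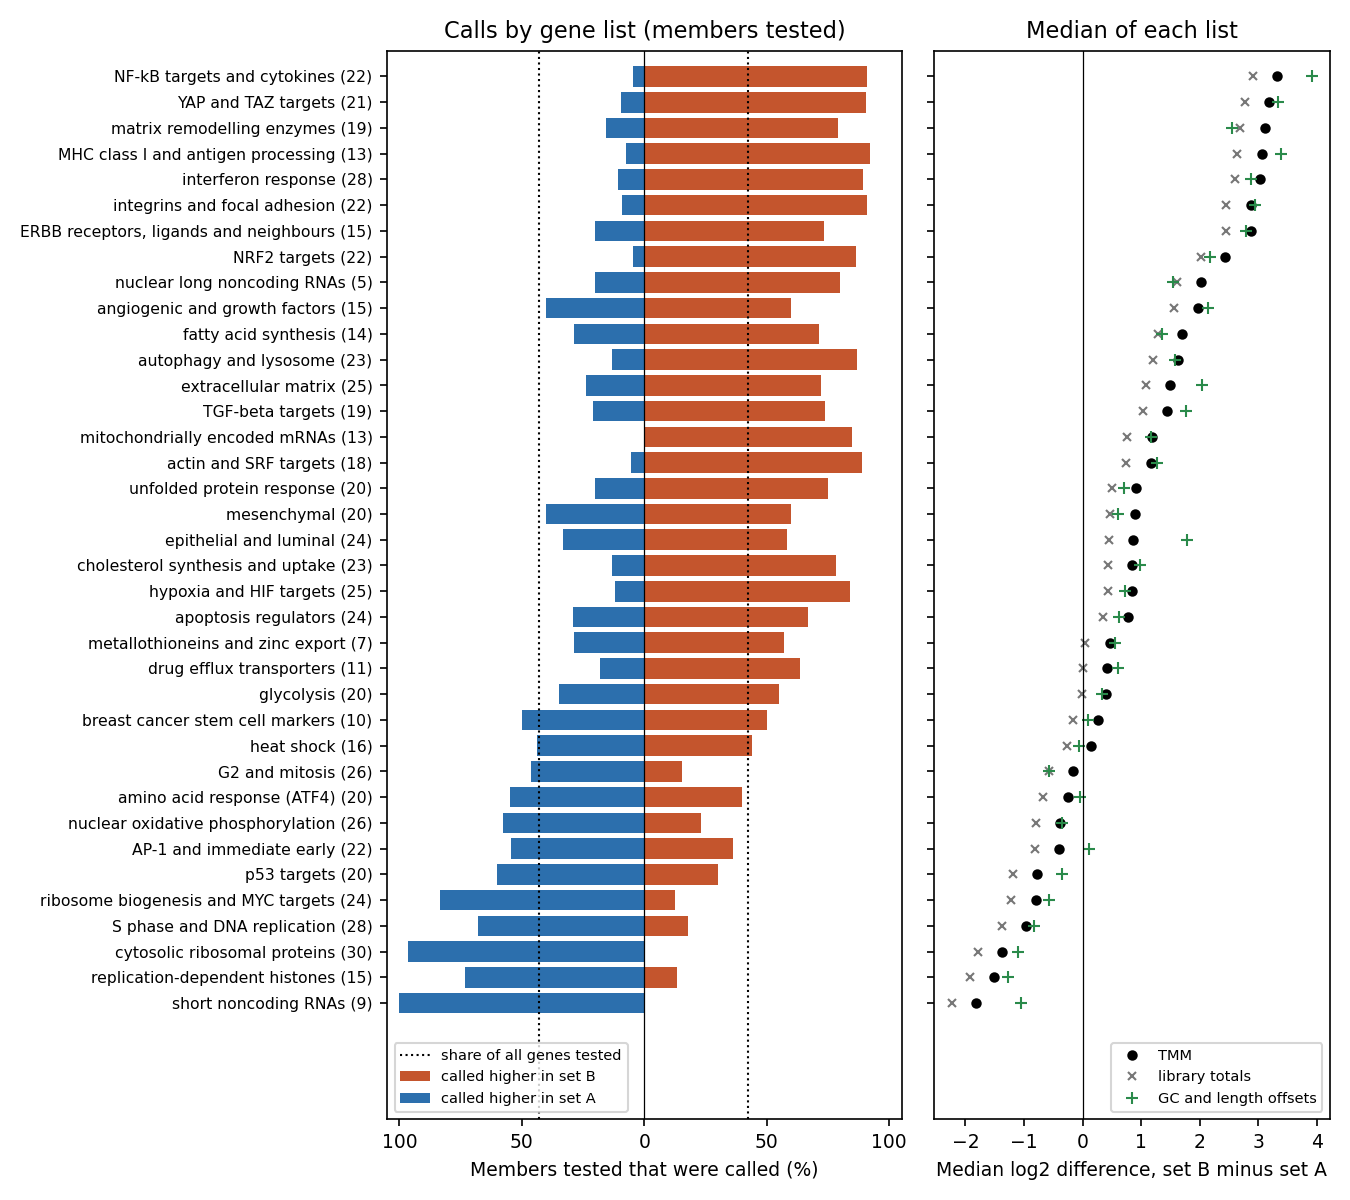
Left, percent of the tested members of each functional list called higher in set B (to the right) or set A (to the left), with dotted lines at 42.2% and 43.1%, the shares of all genes tested; right, the list's median log2 difference with TMM scaling, library totals and offsets for GC content and length. The NF-kB list has a median of 3.32 and the ribosomal protein list one of -1.37.

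Spread within the sets was small beside these differences. The biological coefficient of variation that edgeR estimates over all genes was 8.31% in set A and 8.12% in set B. Replicate 3 stood somewhat apart in set A, where the value without it was 5.47%. Replicates 1 and 2 of set A differed beyond counting noise in 11.9% of the genes compared, the fewest of any pair, and replicates 1 and 2 of set B in 34.7%, the most. No pair agreed within counting noise, and each library was counted as 1 sample. Spread beyond counting noise does not show whether replicates were separate cultures.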

How the data were processed

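RNA-seq counts per gene were deposited by the authors as whole numbers with no normalization, 17911 genes in 9 columns, and 237 genes had no symbol. The genome build hg38 and the tools featureCounts and limma come from the submitters' processing notes. The column names of set A and of the capsules hold the word subread, the name of an aligner and of the software package that includes featureCounts, per the file headers, and those of set B do not. The aligner's version, the annotation and strandedness are not given in the sources used here, so overlapping and antisense genes cannot be separated. Libraries were prepared with TruSeq from TRIzol RNA, per the labels' protocols.

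Set B was compared with set A by edgeR 4.0.16 (R 4.3.3): default filter on low counts, TMM scaling, quasi-likelihood test, Benjamini-Hochberg threshold of 0.05. On simulated counts for this comparison (16312 genes), 92 of 100 genes changed 1.5-fold and 100 of 100 changed 3-fold were found, with 11 false calls. The simulated sets differed in these 200 genes only, with as many raised as lowered and the same spread for every gene. In the real sets 85.2% of genes were called, so the false calls do not measure the error there. A set without counts was taken at 3 counts per library. Intervals and floors cover counting error only. Alternatives used DESeq2 1.42.0, limma 3.58.1 (voom), other scalings and filters, a replicate block, all 9 columns and each library left out.

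Members and gene lists were chosen with earlier results of these data known. The MDA-MB-231 and HEK293 lists were written from general knowledge after an earlier look at these data. Named genes were the 12 with the largest change per direction (called, mean of at least 5 CPM over the 6 libraries, libraries of the sets apart). To these were added up to 3 called members of each list with the smallest p, and 9 fixed genes. Others in the text are list members chosen after their values were seen. Of all genes, 17667 matched RefSeq coordinates (GRCh38.p14) and 17131 (95.7%) had a length and GC content from GENCODE. Tables were handled with pandas 2.3.3 in Python 3.11.15. Some genes that these rules take up are not reported here.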

Additional observations from a re-analysis of the deposited data

How the results depend on the processing

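The count of 14259 genes called lay between 10287 (more than 1.5-fold) and 15017 (no filter on low counts). DESeq2 called 14567, limma-voom 14252, the fit over all 9 columns 14521, and the offsets for GC content and length, added after seeing the data, 13906. Leaving out a library gave 13972 to 14326. The main fit did not pair the sets by replicate number. Deviations of same-numbered libraries had correlations of -0.20, 0.01 and -0.10. With so few libraries these values cannot settle whether the libraries were prepared in pairs. With the replicate block 13953 genes were called (6904 higher in set B and 7049 in set A), and every named gene kept its side of the threshold. Library totals gave 5246 higher in set B and 9116 in set A.

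The number of lists with more members higher in set B, 29, lay between 25 and 32. The coefficient of variation within set A ranged from 5.47% (without replicate 3) to 10.6% (without replicate 2), within set B from 7.08% to 9.25%, and over both from 7.39% to 9.07%. With library totals the direction turned for the medians of glycolysis (-0.010), heat shock (-0.26), stem cell markers (-0.16), fibroblast (-0.28), immune (-0.050) and HER2 luminal markers (-0.25), and for ERBB2 (-0.26), MKI67 (-0.28) and CDH1 (-0.10). With offsets for GC content and length it turned for heat shock (-0.068), AP-1 (0.10) and MKI67 (-0.019). Leaving out 1 library moved the fibroblast median between -0.080 (without replicate 3 of set B) and 0.34 (without replicate 2 of set B). Of 2352 values of named genes under other settings 2337 kept direction and call. Depth limits genes with few counts, such as CA9 (70 counts in set A).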

Other observations

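Gene families that were not among the lists were looked at after their values were seen, so their counts are descriptions. Of all genes tested 42.2% were higher in set B and 43.1% in set A. All 38 HOX genes tested, the regulators of body axis identity, were higher in set A, and 5 of them had no count in set B. HOXB9 was at 143 CPM in set A and 4.95 CPM in set B, HOXD13 at 95.3 CPM in set A and 0.0231 CPM in set B and HOXA13 at 24.4 CPM in set A and 3.76 CPM in set B. The 4 ZIC genes, transcription factors of neural development, were likewise higher in set A, with ZIC5 at 36.3 CPM in set A and 0.031 CPM in set B. Of 11 genes of the neuronal cytoskeleton 7 were higher in set A and 3 in set B, where the microtubule protein MAP2 was at 37.2 CPM against 4.21 CPM in set A.

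All 9 complement genes tested were higher in set B, among them C3, the central component, at 8.06 CPM in set A and 1024 CPM in set B, and CFB, its activating protease, at 0.405 CPM in set A and 201 CPM in set B. LCN2, which binds bacterial iron carriers, was at 0.183 CPM in set A and 129 CPM in set B, and the acute-phase gene SAA1 at 0.0547 CPM in set A and 37.5 CPM in set B. All 6 cystatins, inhibitors of cysteine proteases, were higher in set B, with CST1 at 0.0185 CPM in set A and 63.1 CPM in set B; CST1, CST2 and CST4 are close relatives, so reads may be shared. The 5 SLFN genes tested were also higher in set B, and SLFN13 was at 0.0181 CPM in set A and 43.7 CPM in set B. Of 26 clustered protocadherins, neuronal adhesion genes with shared exons, 22 were higher in set B and 4 in set A, with PCDHGB2 at 0.496 CPM in set A and 29.3 CPM in set B.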
